A study of Mus musculus with 4 samples.

Results

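LIM homeobox genes encode transcription factors that carry a DNA-binding homeodomain beside a pair of LIM zinc-finger domains. Here the promoters of 10 of them were followed on arrays of mouse promoters, as all probes whose deposited gene name was an Lhx name with 1 digit, Isl1, Isl2, Lmx1a or Lmx1b. The 10 genes were Lhx1, Lhx2, Lhx5, Lhx6, Lhx8, Lhx9, Isl1, Isl2, Lmx1a and Lmx1b, out of 17649 promoters measured. They held 391 of 462748 probes with a gene name, and 390 were used because 1 Lhx8 probe carried an outlier flag. Other LIM homeobox genes had no probe under these names and were not analysed here.

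Ring1B was mapped in fibroblasts of mouse embryos, which are primary cells, of strain C57BL/6, taken at embryonic day 12.5 and grown to passage 2. One group was wild type and the other carried Phc2 L307R, an altered Polycomb subunit, on both alleles. Ring1B-bound DNA was collected with a Ring1B antibody (chromatin immunoprecipitation), labelled with Cy5 and hybridised together with Cy3-labelled input DNA from the same kind of cells. There were 4 arrays, 1 for each genotype on each of 2 array designs, which shared 0 probes. Each gene was thus measured once per genotype, so there is no p-value and no error between cultures, and the labels do not say how many embryos or cultures stood behind an array. The dyes were not swapped on any of these arrays.

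Ring1B is the subunit of Polycomb repressive complex 1 (PRC1) that attaches ubiquitin to histone H2A, and PRC1 keeps developmental genes silent in cells that do not need them. Phc2 belongs to the same complex and can link PRC1 particles to each other through polymers of its SAM domain, the feature named in the study's title. LIM homeodomain factors set neuron subtype and organ identity: they work in dimers or larger assemblies held together by the cofactor Ldb1, and LIM-only (Lmo) proteins compete for that cofactor. Neural LIM homeobox genes are well-known Polycomb targets outside the lineages that use them. The comparison addresses how much Ring1B these genes hold when Phc2 carries the L307R change.

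Promoter windows from RefSeq (assembly GRCm38.p6), which run from 250 bases before to 50 bases after a transcript start, were matched for 9 of the 10 genes, Lhx5 being the exception. They are shown for the genes that the results below turn on, as the 250 bases upstream of a start, in 5′ to 3′ orientation of the gene, with each CpG dinucleotide in capitals. Lhx8 held the most Ring1B of the 10 genes, Isl1 and Isl2 are paralogues whose differences between genotypes had opposite signs, as had those of Lhx2 and Lhx9, and Lhx9 had the highest difference. The positions are chr3:154330561-154330810 for Lhx8, chr13:116309689-116309938 for Isl1, chr9:55540899-55541148 for Isl2 and chr1:138842445-138842694 for Lhx9. Isl2 lies on the plus strand and the others on the minus strand. The starts of Lhx8 and Isl1 are the outer edge of the annotated gene, whereas those of Isl2 and Lhx9 lie inside it.
Lhx8: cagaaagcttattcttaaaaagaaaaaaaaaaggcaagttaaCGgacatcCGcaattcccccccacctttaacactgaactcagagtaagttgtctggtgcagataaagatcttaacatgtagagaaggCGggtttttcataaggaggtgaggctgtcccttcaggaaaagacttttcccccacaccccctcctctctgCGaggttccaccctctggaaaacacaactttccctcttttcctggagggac
Isl1: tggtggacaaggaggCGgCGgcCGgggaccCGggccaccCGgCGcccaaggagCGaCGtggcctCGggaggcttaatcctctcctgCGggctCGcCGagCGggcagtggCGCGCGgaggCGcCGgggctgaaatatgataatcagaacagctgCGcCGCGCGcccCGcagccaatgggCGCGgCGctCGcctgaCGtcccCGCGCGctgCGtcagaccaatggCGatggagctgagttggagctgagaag
Isl2: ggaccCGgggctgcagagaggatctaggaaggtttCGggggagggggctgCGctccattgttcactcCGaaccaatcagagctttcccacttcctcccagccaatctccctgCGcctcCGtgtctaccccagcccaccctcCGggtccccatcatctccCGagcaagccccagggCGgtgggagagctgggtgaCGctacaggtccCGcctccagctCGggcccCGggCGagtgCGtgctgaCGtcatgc
Lhx9: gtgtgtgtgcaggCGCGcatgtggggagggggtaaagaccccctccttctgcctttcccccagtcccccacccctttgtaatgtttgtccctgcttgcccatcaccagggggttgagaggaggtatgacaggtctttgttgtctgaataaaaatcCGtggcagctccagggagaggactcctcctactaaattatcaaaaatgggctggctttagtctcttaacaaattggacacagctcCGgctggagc

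The 4 sequences differed in CpG content. There were 33 CpG in the Isl1 stretch, 16 in that of Isl2, and 4 each in those of Lhx8 and Lhx9. Dense CpG content is a known feature of many Polycomb target promoters. Over the 12 windows of 300 bases that belonged to the 9 matched genes (3 for Lhx6 and 2 for Lhx2), the median was 20 CpG and 64.5% GC, against 7 CpG and 52.7% GC over all 32851 windows of the table. A CpG observed over expected ratio of at least 0.6 together with at least 50% GC was met by 7 of the 12, against 33.5% of all windows. The homeodomain core TAATTA, which reads the same on both strands, occurred in 0 of the 12 windows and in 5.29% of all windows. The sources used here do not name the genome build of the array positions below, so the probes could not be placed on these sequences or on exons and introns.

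Values are log2 ratios of immunoprecipitate over input, centred on the median of each array, so a level of 0 is that array's typical probe and a change shared by all probes would not show. For each gene the level is the mean of the 3 neighbouring probes within 2000 bp that stood highest over both genotypes, with the SD over these probes as its error. That SD covers neighbouring probes of 1 hybridisation, not cultures. Between 97.9% and 99.7% of all probes per array had immunoprecipitate signal well above background. For input signal this share was 85.7% and 86.7% in wild type but only 75.0% and 76.3% in Phc2 L307R. Scan days also differed between the genotypes, so genotype and scan day cannot be told apart.

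The deposited data also held value tables, and these gave a second version of wild type. For Phc2 L307R, 99.9% of probes on both designs had the scanner ratio shifted by a constant (within 0.01 on the log10 scale). For wild type this held at 6.78% and 7.24% of probes, and the correlation of table and scanner ratios was 0.854 and 0.891. Which array or processing gave the wild-type columns of the tables is unknown. Values below come from the scanner files unless the value tables are named, and both comparisons share the Phc2 L307R arrays.

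All 10 LIM homeobox promoters held Ring1B in wild-type fibroblasts and in Phc2 L307R fibroblasts. Each reached a log2 ratio of 1, the level called bound here, in both genotypes, a level reached by 45.4% of all promoters in wild type and by 39.3% in Phc2 L307R. The 10 genes held 25 to 45 probes each. A promoter with more probes has more windows from which the highest is taken, and these shares are not adjusted for that. A level of 3 was reached by 9 of the 10 in wild type and by 8 in Phc2 L307R, against 1.58% and 1.44% of all promoters. The gene that reached it only in wild type was Lhx6, at 3.08 and 2.19. Its wild-type level included 1 probe at 3.99 whose input was not well above background. The median level of the 10 genes was 4.24 in wild type and 3.96 in Phc2 L307R, while the median of all promoters in wild type was 0.90. In the wild-type value tables the median over the same windows was 5.49.

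**Figure D1:**
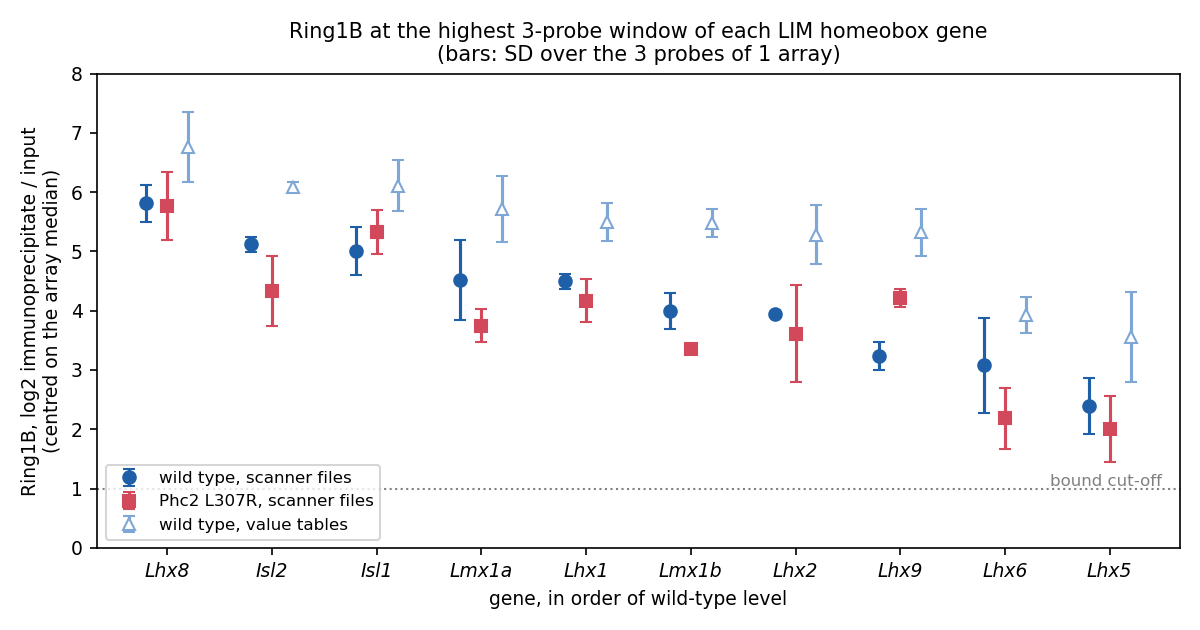
Ring1B level (log2 immunoprecipitate over input, centred on the array median) at the highest window of 3 probes of each gene, in order of the wild-type level; circles are wild type and squares Phc2 L307R from the scanner files, open triangles wild type from the value tables, and bars the SD over the 3 probes of 1 array. The triangles lie above the circles at all 10 genes, and the squares lie above the circles only at Isl1 and Lhx9.

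From the highest to the lowest wild-type level the order was Lhx8, Isl2, Isl1, Lmx1a, Lhx1, Lmx1b, Lhx2, Lhx9, Lhx6 and Lhx5. Only 3 of the 9 steps in this order were wider than the root of the summed squares of both SDs. These were the step of 0.69 from Lhx8 to Isl2, that of 0.51 from Lhx1 to Lmx1b and that of 0.70 from Lhx2 to Lhx9. Isl1, Isl2 and Lhx1 were measured on array design 2 and the other genes on array design 1. The steps from Lhx8 to Isl2 and from Lhx1 to Lmx1b were thus between separate arrays, a difference that the SDs do not cover. Neighbours within the runs Isl2, Isl1, Lmx1a and Lhx1, then Lmx1b and Lhx2, then Lhx9, Lhx6 and Lhx5 did not differ beyond their spread. Lhx8 ranked 9 among all 17649 promoters of both array designs in wild type and 5 in Phc2 L307R. Lhx5 ranked 663 and 1320.

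None of the 10 genes met the rule used for a difference, which asked for a 2-fold change of the window (a difference of at least 1 on the log2 scale) with all 3 probes on the same side. Of the 8998 promoters bound in either genotype, this rule took 3.02% as lower in Phc2 L307R and 1.64% as higher. It took 17.3% and 3.81% of the 341 promoters at or above 3 in either genotype. The difference, Phc2 L307R minus wild type, had a median of -0.36 over the 10 genes and ran from -0.89 at Lhx6 to 0.97 at Lhx9. It lay below 0 at 8 genes, against 61.9% of bound promoters and 65.1% of those at or above 3. The median difference was -0.14 over bound promoters and -0.30 over those at or above 3, where the middle 95% of values ran from -1.77 to 1.09. All 10 LIM homeobox genes lay inside that range.

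With the value tables, the difference over the same windows lay below 0 at 10 of 10 genes, with a median of -1.61 and a range from -2.13 at Lmx1b to -0.78 at Isl1. With windows chosen on the value tables, 9 of the 10 genes met the rule as lower, all but Isl1, where 8.23% of bound promoters and 73.7% of promoters at or above 3 did so. Differences below 0 made up 92.2% of the promoters at or above 3 there, and their median was -1.51. At these genes wild type stood 0.85 to 2.08 higher in the tables than in the scanner files, with a median of 1.14. At 9 of the 10 genes this gap between versions of wild type was larger than the difference between the genotypes in the scanner files.

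**Figure D2:**
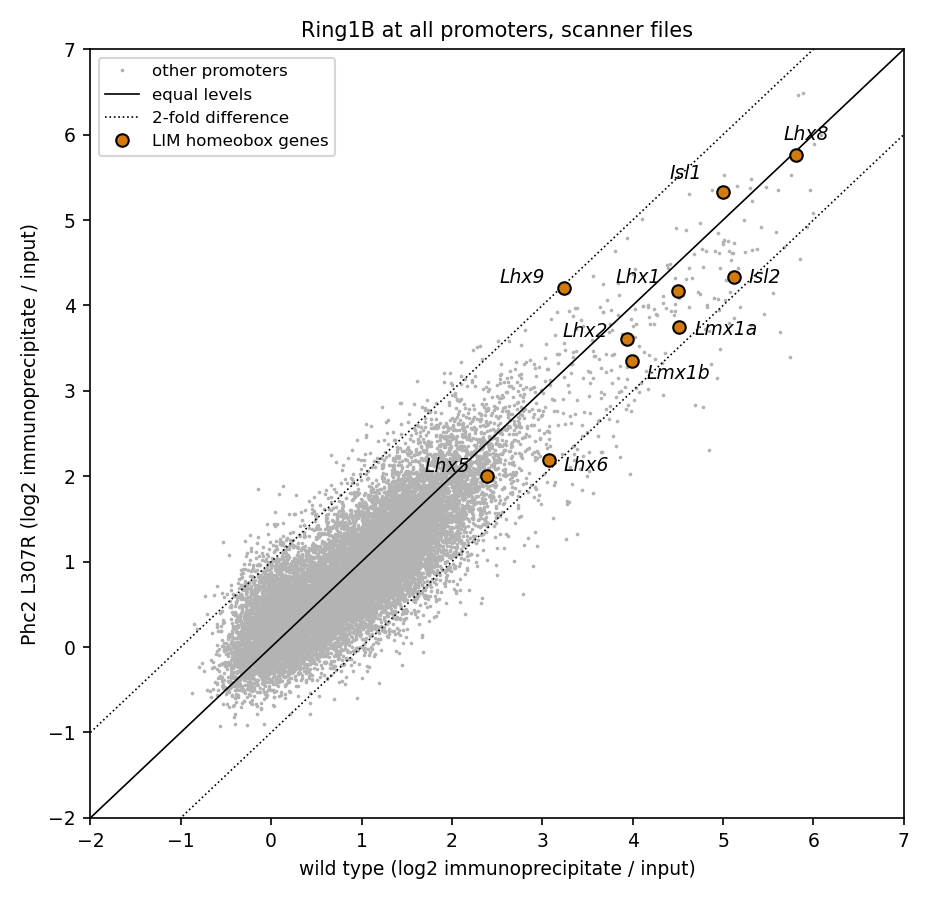
Ring1B level of each promoter in wild type (x axis) and in Phc2 L307R (y axis), both as log2 immunoprecipitate over input from the scanner files; each point is the highest window of 1 promoter, with the 10 LIM homeobox genes in orange, the solid line at equal levels and the dotted lines at a 2-fold difference. The LIM homeobox genes lie at the upper right, between the dotted lines, with Lhx9 at 3.24 and 4.21 nearest to the upper one and Lhx6 at 3.08 and 2.19 nearest to the lower one.

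Isl1 and Isl2 act in motor neurons, where both take part, and Isl1 also in sensory neurons, cardiac progenitors and pancreatic islets. Both were measured on array design 2. The Isl1 window (chromosome 13, 117428777 to 117429194) read 4.73, 5.48 and 4.81 at its 3 probes in wild type, whereas Phc2 L307R gave 4.92, 5.67 and 5.39. All 3 probes were thus higher in Phc2 L307R, while the ranges of the 3 values overlapped. The third probe differed most, by 0.58, and its input was not well above background in Phc2 L307R. The means were 5.01 (SD 0.41) and 5.33 (SD 0.38), a difference of 0.32 (SD 0.23), and -0.78 in the value tables. Isl1 ranked 47 in wild type and 15 in Phc2 L307R.

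The Isl2 window (chromosome 9, 55339792 to 55340128) read 5.25, 5.02 and 5.08 in wild type, whereas Phc2 L307R gave 4.93, 3.75 and 4.31. Every wild-type probe was above every Phc2 L307R probe. Input at the first probe was not well above background in Phc2 L307R. The means were 5.12 (SD 0.12) and 4.33 (SD 0.59), a difference of -0.79 (SD 0.48), and -1.75 in the value tables. The 2 paralogues stood 0.11 apart in wild type and 1.00 apart in Phc2 L307R. Their differences between genotypes lay 1.11 apart (root of the summed squares of the SDs 0.53), and 0.96 apart in the value tables, which hold the same Phc2 L307R array. This gap between Isl1 and Isl2 was a comparison within 1 pair of arrays. The gap between Lhx2 and Lhx9, on array design 1, was wider at -1.30 (root of the summed squares of the SDs 0.81), and -0.54 in the value tables.

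Outside the first 2 kb of Isl1 both genes were lower in Phc2 L307R on average. Of 41 Isl2 probes, 40 were lower in Phc2 L307R, with a mean difference of -0.96 (SD over the probes 0.61). In successive stretches of 2 kb the mean Isl2 difference was -0.58, -1.05, -0.98 and -1.35. Of 41 Isl1 probes, 24 were lower and 17 higher, with a mean difference of -0.15 (SD 0.47). The Isl1 difference was 0.18 over the first 2 kb, which held the window, and -0.26, -0.25 and -0.48 over the following stretches, so the opposite sign of Isl1 was present only in its first stretch. Isl2 had 24 probes at or above 3 in wild type against 14 in Phc2 L307R, and Isl1 had 32 against 28.

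Lhx6 and Lhx8 direct interneurons and cholinergic neurons of the ventral forebrain and also act in tooth and jaw mesenchyme. Lhx8, on array design 1 like Lhx6, had the highest level of the 10 genes. Its window (chromosome 3, 154264254 to 154264695) read 5.96, 5.46 and 6.01 in wild type, whereas Phc2 L307R gave 6.34, 5.21 and 5.75. The values of both genotypes overlapped, with the first probe higher in Phc2 L307R and the other two lower, by a difference of -0.25 and -0.26. Input at the first probe was not well above background in either genotype, and the Lhx8 level and ranks include it. The means were 5.81 (SD 0.31) and 5.77 (SD 0.57), a difference of -0.04 (SD 0.37), and -0.99 in the value tables.

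Ring1B spread widely over Lhx8. The longest run of neighbouring probes at or above 3 covered 4747 bp in wild type and 3401 bp in Phc2 L307R, and the longest run at or above 1 covered 6686 bp and 6266 bp of 8004 bp tiled. The mean difference in successive 2 kb stretches was -0.25, 0.04, -0.60 and -0.04. The lowest of these stretches lay on the flank, from 4 to 6 kb, where 10 of 11 probes were lower in Phc2 L307R. In the last stretch 8 of 12 probes were higher in Phc2 L307R. At several of these 8 the input was not well above background in Phc2 L307R. The mean of this stretch also included 1 probe with a difference of -2.83, whose input was not well above background in wild type.

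Lhx6 held far less Ring1B than its paralogue. Its window (chromosome 2, 35925919 to 35926349) read 3.99, 2.77 and 2.48 in wild type, whereas Phc2 L307R gave 1.64, 2.26 and 2.66. The difference of -0.89 had an SD of 1.31 over the 3 probes and was -1.74 in the value tables. It rested on 1 probe, which differed by -2.35 and whose input was not well above background in wild type. The other 2 probes of the window differed by -0.51 and 0.19. Over all 43 Lhx6 probes, 37 were lower in Phc2 L307R, with a mean difference of -0.36 (SD 0.55). Only 1 Lhx6 probe reached 3 in wild type, the same probe of the window, and 0 did in Phc2 L307R.

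Lhx2 and Lhx9 form a subfamily that acts in forebrain, eye, limb and, for Lhx9, the gonad. Lhx9 was the gene with the highest difference. Its window (chromosome 1, 140656805 to 140657578) read 2.98, 3.29 and 3.44 in wild type, whereas Phc2 L307R gave 4.08, 4.17 and 4.38. Every Phc2 L307R probe was above every wild-type probe. Input at the third probe was not well above background in Phc2 L307R. The means were 3.24 (SD 0.24) and 4.21 (SD 0.15), and the difference of 0.97 (SD 0.11), a 1.96-fold change, was just short of the 2-fold rule. Of the 341 promoters at or above 3, 15 had a higher difference.

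The sign of Lhx9 depended on the version of wild type. The same 3 probes read 4.94, 5.30 and 5.73 in the wild-type value table, above Phc2 L307R, and gave a difference of -1.12. The table exceeded the wild-type scanner value by 2.08 here, the largest gap between versions of wild type among the 10 genes. Over all 40 Lhx9 probes in the scanner files, 32 were higher in Phc2 L307R and 8 lower, with a mean difference of 0.48 (SD 0.60). The value tables gave 39 of the 40 as lower. The mean difference in successive 2 kb stretches was 0.82, 0.73, 0.27 and 0.06, and 0.14 over the last 2 probes. Probes at or above 3 numbered 6 in wild type and 16 in Phc2 L307R, and their longest run covered 263 bp and 2863 bp, with 2993 bp in the wild-type value table.

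The Lhx2 window (chromosome 2, 38169371 to 38169928) read 3.96, 3.94 and 3.92 in wild type, whereas Phc2 L307R gave 4.55, 3.20 and 3.07. The 3 probes disagreed in direction: the first was higher in Phc2 L307R, with input not well above background in either genotype, and the other two were lower. The difference was -0.33 (SD 0.80), and -1.67 in the value tables. It was -0.88 with only probes well above background, -0.997 after normexp background correction and -0.15 after loess. Of 37 Lhx2 probes, 28 were lower in Phc2 L307R, with a mean difference of -0.27 (SD 0.50).

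Lhx1 and Lhx5 are the pair of the early brain organiser, kidney and spinal interneurons. The Lhx1 window (chromosome 11, 84339431 to 84339820) read 4.56, 4.35 and 4.58 in wild type, whereas Phc2 L307R gave 4.44, 4.30 and 3.76. The values overlapped, and most of the difference of -0.33 (SD 0.42) came from the third probe. It was -1.33 in the value tables. Of 43 Lhx1 probes, 37 were lower in Phc2 L307R, with a mean difference of -0.42 (SD 0.46), and the longest run at or above 3 covered 1829 bp in both genotypes.

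Lhx5 had the lowest level of the 10 genes. Its window (chromosome 5, 120693264 to 120693651) read 1.85, 2.64 and 2.69 in wild type, whereas Phc2 L307R gave 1.42, 2.06 and 2.53. Each probe was lower in Phc2 L307R, yet the ranges overlapped. Input at the third probe was not well above background in either genotype. The difference was -0.39 (SD 0.21), and -1.56 in the value tables. None of its 45 probes reached 3 in either genotype in the scanner files, whereas 7 did in the wild-type value table. The Lhx1 and Lhx5 levels stood 2.11 apart in wild type and 2.17 apart in Phc2 L307R. Lhx1 was on array design 2 and Lhx5 on array design 1, so these gaps are between separate arrays.

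Lmx1a and Lmx1b pattern the roof plate and midbrain dopaminergic neurons, and Lmx1b also the dorsal limb and the kidney podocyte. The Lmx1a window (chromosome 1, 169527941 to 169528348) read 4.64, 5.12 and 3.79 in wild type, whereas Phc2 L307R gave 3.97, 3.83 and 3.44. The difference was -0.77 (SD 0.48), and -1.97 in the value tables. The Lmx1b window (chromosome 2, 33458512 to 33458885) read 3.84, 3.78 and 4.34 in wild type, whereas Phc2 L307R gave 3.31, 3.45 and 3.30. Every wild-type probe of Lmx1b was above every Phc2 L307R probe, while the Lmx1a values overlapped. The Lmx1b difference was -0.63 (SD 0.36), and -2.13 in the value tables.

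Both Lmx1 genes were lower over nearly the whole tiled region. Of 25 Lmx1b probes 25 were lower in Phc2 L307R, with a mean difference of -0.66 (SD 0.38), and of 32 Lmx1a probes 30 were, with a mean of -0.77 (SD 0.71). The longest run at or above 3 covered 2593 bp in wild type and 1164 bp in Phc2 L307R at Lmx1a, and 1285 bp and 551 bp at Lmx1b. A promoter shared by Lmx1b and C130021I20Rik, which lies outside the rule for members and has 4 probes, read 1.51 in Phc2 L307R, a difference of 0.0018 (SD 0.18) from wild type, and differed by -0.44 in the value tables.

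**Figure D3:**
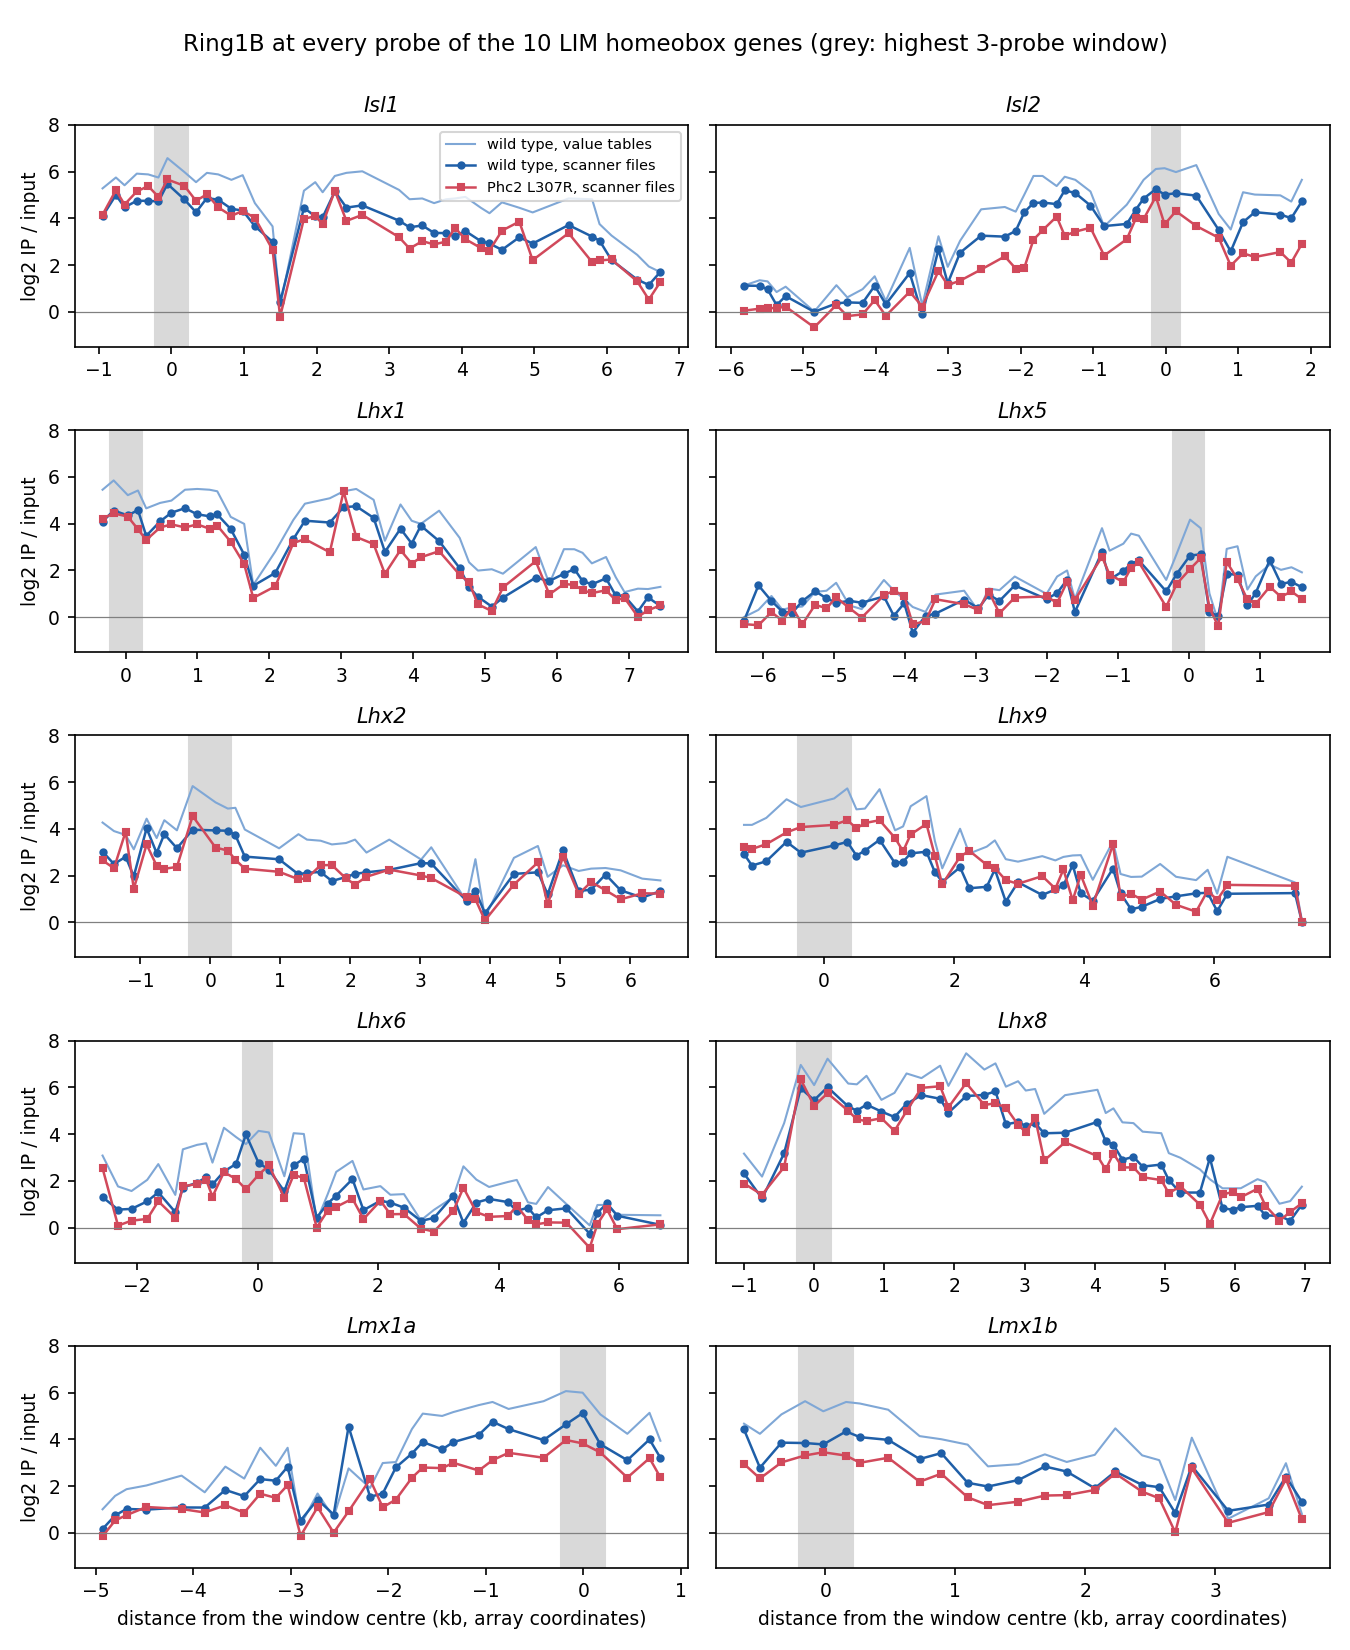
Ring1B at every probe of the 10 genes, as log2 immunoprecipitate over input centred on the array median (y axis) against the distance from the centre of the highest window in kb (x axis); dark circles are wild type and squares Phc2 L307R from the scanner files, the thin line is wild type from the value tables, and the grey band is the window. The squares run below the circles along Isl2, Lmx1a and Lmx1b, and mostly above them over the first 4 kb of Lhx9. They lie close to the circles around the windows of Lhx8 and Isl1, with lower stretches farther out. At the far end of Lhx8 most squares lie above the circles, several of them at probes with input not well above background in Phc2 L307R.

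Of the 390 probes of all members, 78.7% reached 1 in wild type and 72.3% in Phc2 L307R, against 14% and 12.9% of all named probes. A value of 3 was reached by 144 (36.9%) and 114 (29.2%), against 0.833% and 0.679%. In Phc2 L307R 287 of the 390 probes (73.6%) were lower than in wild type, against 55.2% of all named probes and 64.7% of those at or above 3 in either genotype. Neighbouring probes of a gene share their chromatin and their array, so these are not separate observations. The shape of Ring1B along a gene was alike in both genotypes, with a correlation of wild type with Phc2 L307R across the probes of a gene from 0.80 at Lhx6 (43 probes) to 0.95 at Lhx1 (43 probes). Between both versions of wild type it ran from 0.87 at Lhx6 to 0.99 at Isl2. These correlations describe probes that share base composition between arrays.

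The separate channels showed which signal moved with each difference. Relative to each array's median, the Ring1B immunoprecipitate signal of the window was lower in Phc2 L307R by a log2 change of -1.06 at Isl2, -0.85 at Lhx2, -0.74 at Lmx1b and -0.62 at Lmx1a. It was higher by 1.00 at Lhx9, 0.64 at Lhx8 and 0.28 at Isl1. The input signal changed little at Lhx9 (0.02), Lhx1 (0.03) and Isl1 (-0.08). At Lhx6 the immunoprecipitate differed by -0.01 and the input by 0.87, so the ratio there moved with the input. Input also differed by 0.67 at Lhx8 and by -0.53 at Lhx2. The immunoprecipitate was well above background at all 30 window probes in both genotypes, and the input at 26 of them in wild type and 24 in Phc2 L307R. The part of input signal in the differences was not tested beyond these values.

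**Figure D4:**
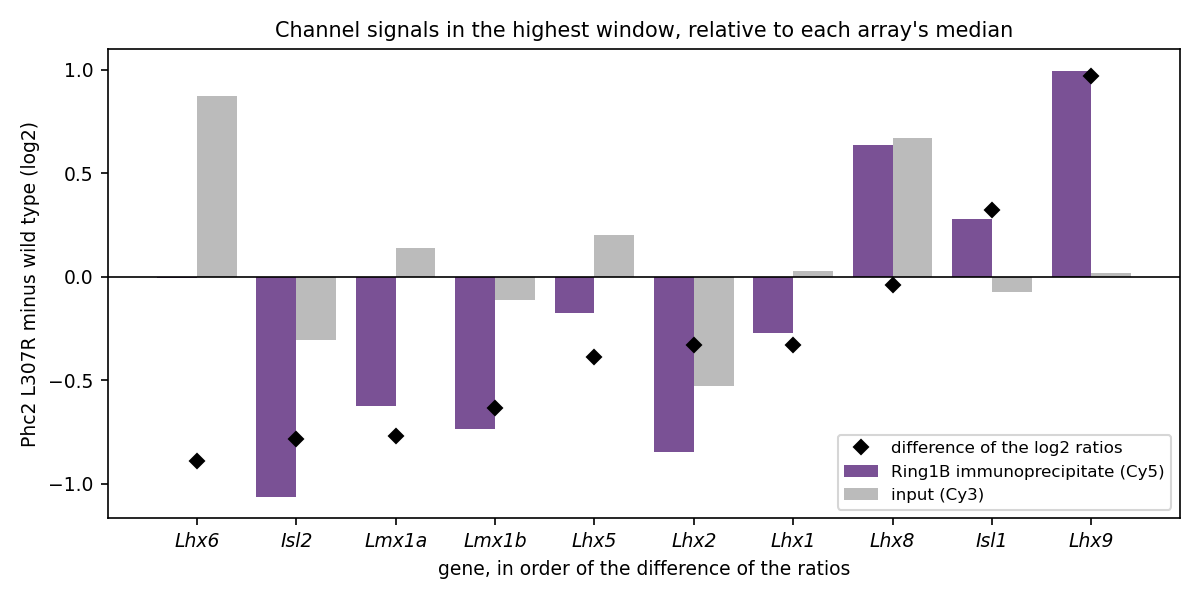
Phc2 L307R minus wild type for the Ring1B immunoprecipitate signal (Cy5, dark bars) and the input signal (Cy3, grey bars) of each window, on the log2 scale relative to each array's median, with the difference of the log2 ratios as diamonds; genes are in order of that difference. Lhx6 has an input bar of 0.87 and almost no immunoprecipitate bar, while at Lhx9 the immunoprecipitate bar of 1.00 stands almost alone.

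For 5 of the genes, the promoters of the same array design nearest in both levels (Euclidean distance over the 2 genotypes) were listed. Those nearest to Isl1 were Foxd1 (5.15 in wild type, 5.40 in Phc2 L307R), Pou4f1 (5.01 and 5.53) and Sox21 (5.29 and 5.37), all genes of developmental transcription factors. Nearest to Isl2 were 0610008C08Rik at a distance of 0.09, Igf2bp1 at 0.11 and the forkhead gene Foxb2 at 0.18. Nearest to Lhx9 were the promoter shared by 8030451K01Rik and 2810046L04Rik (3.36 and 3.97), the endoderm factor Sox17 (3.30 and 3.93) and Hoxa9 (3.56 and 4.34). Among those nearest to Lhx8 were Igf2bp3 at a distance of 0.70 and Sox2 at 0.73. Nearest to Lhx6 were 5830415F09Rik, A730069N07Rik and Hoxd12, the last with 2.92 and 2.23. The likeness covers 2 values per promoter.

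The genes of LIM cofactors and LIM-only proteins stood lower, at a median wild-type level of 1.52 against 4.24 for the LIM homeobox genes. Of the 10 (Ldb1, Ldb2, Ssbp2, Ssbp3, Ssbp4, Rlim and Lmo1 to Lmo4), 8 were bound in wild type and 8 in Phc2 L307R, against 45.4% and 39.3% of all promoters, and 0 reached 3 in wild type, against 1.58%. Their median difference was -0.14. By the rule 0 of 10 were lower or higher, against 3.02% and 1.64% of bound promoters. With the value tables, Lmo2 alone of the 10 was lower, with a difference of -1.80, against 8.23% of bound promoters there. The highest levels were 2.61 at Ssbp3, which encodes a partner of Ldb1, 2.34 at Lmo4 and 2.25 at Lmo2. Ldb1, the common cofactor of these factors, stood at 0.99 in wild type and 0.66 in Phc2 L307R.

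Genes that act under or beside LIM homeodomain factors in motor neurons, sensory neurons, heart, pancreas, pituitary, midbrain, eye, gonad and interneurons included promoters with high Ring1B. Of 32 listed, 30 were measured, 25 were bound in wild type and 24 in Phc2 L307R (45.4% and 39.3% of all promoters), and 11 reached 3 in wild type (1.58% of all promoters). The highest were Pou4f1, the sensory neuron factor that follows Isl1, at 5.01, the beta-cell factor Mafa at 4.93 and the pituitary and hindlimb factor Pitx1 at 4.90. By the 2-fold rule 4 of the 30 were lower in Phc2 L307R and 0 higher, where 3.02% of bound promoters and 17.3% of those at or above 3 were lower. They included Mafa (difference -1.78, SD 0.66), the gonad and adrenal factor Nr5a1 (-1.57, SD 0.69) and the eye-field factor Rax (-1.12, SD 0.36). Over the 30 genes the median difference was -0.22, against -0.14 over bound promoters and -0.30 over those at or above 3. The difference lay below 0 at 21 genes, against 61.9% of bound promoters and 65.1% of those at or above 3. The value tables gave 15 as lower, against 8.23% of bound promoters and 73.7% of those at or above 3 there, and a median of -1.13.

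Markers of cell types could be read only as Ring1B levels, not as expression, so the identity of the cells rests on the labels. Of 11 fibroblast marker genes measured, 10 were bound in wild type, against 45.4% of all promoters. Their median level was 2.26 and their median difference 0.27. By the rule 0 were lower or higher, against 3.02% and 1.64% of bound promoters. The 3 blood marker genes measured had a median of 0.11 with 0 bound, and the 3 neuron marker genes a median of 1.26 with 2 bound.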

How the data were processed

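Ring1B ChIP-on-chip was measured on 4 arrays, grouped by the labels' genotype. Spot intensity values in the deposited scanner files were made with Agilent Feature Extraction 10.7.3.1 per the file headers, with background taken from negative controls, detrending and linear dye normalization. Each spot also has a log10 ratio of Cy5 to Cy3, per the file headers. The authors' value tables are also on the log10 scale and run in the same direction, as set against the scanner ratios. Their column medians were -0.056 (design 1) and -0.0615 (design 2) for wild type, and -0.0342 and -0.0393 for Phc2 L307R. How the wild-type columns were scaled and centred is unknown.

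From the deposited ratios, log2 values were computed and centred on each array's median, without control spots (6301 per array) and outlier-flagged spots (30 to 61); saturated spots were kept. All arrays of the labels were used, and 0 columns of other samples were present. With 1 array per genotype and design, fixed rules of size were used and no test was run. The members and lists were chosen with earlier results of these data known. Named genes are all members, the list genes called or among the 3 highest, and the 3 nearest promoters of Lhx6, Lhx8, Lhx9, Isl1 and Isl2; Ldb1 and the shared Lmx1b promoter were added after their values were seen. Some genes covered by this rule enter the counts but are not reported here by name. The window step was tried on simulated data with windows chosen on wild type alone, unlike the main setting, so no result here rests on it. Alternatives were normexp (offset 50), loess, the same spread (median absolute deviation), the value tables, only probes well above background, 5-probe windows, windows chosen on 1 genotype alone, a mean of every probe, a 1.5-fold rule and a bound cut-off of 1.5. Software was R 4.3.3, limma 3.58.1, Python 3.11.15, pandas 2.3.3, numpy 2.4.6, scipy 1.17.1 and matplotlib 3.10.9. The number of arrays limits the precision.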

Additional observations from a re-analysis of the deposited data

How the results depend on the processing

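The counts at the 2-fold rule changed with the setting. Lower in Phc2 L307R were 2 genes after normexp background correction (Isl2 and Lmx1b), 1 with arrays scaled to the same spread (Isl2), 1 with windows of 5 probes (Lmx1a), 1 with the window highest in wild type (Lhx6), 9 in the value tables and 3 with a 1.5-fold rule (Isl2, Lmx1a and Lmx1b). Of all promoters at or above 3, the shares lower in these settings were 45.4%, 32.4%, 18.1%, 23.3%, 73.7% and 33.4%. Except in the value tables the counts stood at or below these shares. Of bound promoters, the shares lower were 5.57%, 4.68%, 1.57%, 5.32%, 8.23% and 13.5%, and the counts stood above these. Higher was 1 gene, Lhx9, after loess, with the 1.5-fold rule, in windows chosen on Phc2 L307R alone and with only probes well above background. The shares of bound promoters called higher there were 1.63%, 6.38%, 3.46% and 0.476%. Windows chosen on 1 genotype alone lean toward that genotype. Over all promoters the median difference was -0.24 with windows chosen on wild type and 0.15 on Phc2 L307R, against -0.05 on both. The Lhx6 window chosen on wild type also held the probe that differed by -2.35. The median difference was -1.61 in the value tables and between -0.66 and -0.27 in the other settings. The median wild-type level was 3.88 after normexp, 5.49 in the value tables and 2.68 as the mean over all probes. All 10 genes stayed bound in both genotypes at a cut-off of 1.5. Of 90 gene values under these alternatives, 27 moved by more than the SD over the probes and 9 had the opposite sign. These were Isl1 after normexp (-0.15), with the same spread (-0.23), in the value tables (-0.78) and over all probes (-0.15), Lhx1 after loess (0.23), Lhx8 after loess (0.18), with 5 probes (0.24) and in the window chosen on Phc2 L307R alone (0.44), and Lhx9 in the value tables (-1.12). Isl2, Lhx2, Lhx5, Lhx6, Lmx1a and Lmx1b lay below 0 in all 10 settings. The cause of these moves was not tested. No paired analysis was possible because each genotype has 1 array per design, and no array could be left out in turn.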

Other observations

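Single probes that stood far from their neighbours were found at Lmx1a and Lhx8. The Lmx1a probe at chromosome 1, 169525713 to 169525761, read 4.55 in wild type and 0.92 in Phc2 L307R, a difference of -3.63, and its value was 2.76 in the wild-type value table. The Lhx8 probe at chromosome 3, 154270094 to 154270138, read 2.98 and 0.15, and 2.07 in the table. Their input, like that of the Lhx6 probe in the report, was not well above background in wild type and was well above it in Phc2 L307R. At Isl1, the probe at chromosome 13, 117430461 to 117430505, read 0.42 in wild type and -0.21 in Phc2 L307R beside higher neighbours, and 0.25 in the wild-type value table, so this dip was present in all 3 sets of values. These probes were chosen after their values were seen.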
